A study of Homo sapiens with 4 samples.

Results

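The genes described here are 10 transcripts that the RAF-MEK-ERK kinase cascade controls and that act back on it or carry its output: *DUSP4*, *DUSP5*, *DUSP6*, *SPRY2*, *SPRY4*, *SPRED1*, *SPRED2*, *PHLDA1*, *ETV4* and *ETV5*. They were chosen by name for this role and make up 10 of the 34241 gene identifiers listed in the count tables. Each symbol was matched to 1 Ensembl identifier, and all 10 are listed in every table and had UMIs (unique molecular identifiers, 1 per counted transcript molecule) in every library. All 10 passed the filter on low genes, a mean of at least 1 CPM over the 4 libraries, which 12683 genes passed. CPM are the UMIs of a gene per 1000000 UMIs of the library. Gene coordinates are those of GRCh38 with the GENCODE 29 annotation.

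The measurements are droplet single-cell RNA counts from A375, an established human melanoma line with the *BRAF* V600E mutation. S is the untreated, sensitive culture. RV was kept on the BRAF inhibitor vemurafenib, RVC on vemurafenib with the MEK inhibitor cobimetinib, and RVT on vemurafenib with the MEK inhibitor trametinib. The treated cultures were held for 10 to 14 days at doses under the IC50, and the drugs were taken away 24 h before capture, so that all values in RV, RVC and RVT are those of cells 24 h off drug. Each condition is 1 library of 1 culture, for which 10000 cells were loaded, and the same parental line lies behind all 4. With 1 library per condition no difference between conditions can be tested, and the ranges given in parentheses are exact 95% intervals that cover counting error only.

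ERK, the last kinase of the cascade, switches on the genes of its own inhibitors. DUSP phosphatases take the activating phosphates off ERK, Sprouty (SPRY) and SPRED proteins dampen signalling upstream at the level of RAS and RAF, and the ETS factors ETV4 and ETV5 carry the ERK signal into transcription. In melanoma with mutant BRAF the transcripts of these genes are widely used as a readout of how active the cascade is, and inhibitors of RAF or MEK lower them while the drug is present.

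The libraries stand apart in ways that are not those of the drugs alone. S and RV were counted with another gene annotation than RVC and RVT (703 identifiers occur only in the former tables, 547 only in the latter), and the median cell held 8806.5 UMIs in S and 11553 in RV, against 3959 in RVC and 2871 in RVT. The median share of mitochondrial UMIs was 3.15% in S and 3.06% in RV, with 3.58% in RVC and 5.77% in RVT. After filtering, 6334 S, 4177 RV, 7623 RVC and 8445 RVT cells were kept, with 25406813 to 58602633 UMIs per library. In the comparisons of RVC or RVT with S, genes with GC-rich transcript ends were lower (Spearman correlation across genes of -0.32 and -0.39), which was not seen in RV against S (-0.01). These differences cannot be told apart from that of the second drug, and the plot of log2 ratios shows every member under other scalings as well. Pairs of libraries shared 36 to 105 cell barcodes, at most 1.38% of a library. The melanoma markers did not keep their levels across the libraries. Of the 8 melanocyte genes, *TYR* had no UMI in any library, and *PMEL*, *MLANA* and *DCT* were at 0.439 CPM or less. *SOX10* stood at 86.3 CPM in S and 39.9 in RV, with 0 in RVC and 19.4 in RVT, and *S100B* at 32.8 and 6.97, with 0 and 0.276. *MITF* was highest in RVT (9.78, 20.2, 8.16 and 41.2), and *TYRP1* was at 0.0683 in S and 0.0191 in RV but 4.76 in RVC and 1.65 in RVT. The undifferentiated state has 5 marker genes, of which *AXL* was at 78.5 to 170 CPM, *EGFR* at 4.27 to 14.4 and *NT5E* at 4.41 to 50.98. *VIM* was at 2433 in S and 2587 in RV, with 559 in RVC and 330.2 in RVT, and *NGFR* was at 1.09, 11.3, 0.455 and 0.0394. The part of these differences in the results for the members was not tested. The leukocyte genes *PTPRC* and *CD3E* had no UMI. The 4 fibroblast genes searched summed to 0.512 CPM in S and 0.744 in RV, with 40.4 in RVC and 27.9 in RVT, and the part of such transcripts in the results for RVC and RVT was not tested.

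The promoters of the members that could be read from RefSeq (GRCh38.p14) were searched for short motifs of factors that stand close to ERK. Windows were found for 6 members, *DUSP6*, *SPRY2*, *SPRY4*, *SPRED1*, *SPRED2* and *PHLDA1*, with 9 windows in all, 3 of them of *SPRY2* and 2 of *SPRED2*. *DUSP4*, *DUSP5*, *ETV4* and *ETV5* were not searched. The ETS letters CCGGAA, searched on both strands in the 250 bases before the start, were in 2 of the 9 windows, 1 of *PHLDA1* and 1 of *SPRY2*. Of all 35116 windows of this length 14.5% hold them. The same search found no match in the 9 windows for the CIC letters TGAATGAA (in 1.40% of all windows) and TGAATGGA (0.832%). None was found for AP-1 (TGANTCA, 6.57%), for the cyclic AMP response element (TGACGTCA, 1.65%) or for the E-box (CACGTG, 6.34%). For the CArG box only 1 fixed sequence was searched, which is in 0.0313% of all windows and in none of the 9. Other sequences of this box were not searched, and neither were other forms of the CIC letters. A match is a description of the letters, not of binding. Both windows with the ETS letters are shown because they carry the sole matches of the letters searched. The window of *DUSP6*, without a match to these letters, is shown because *DUSP6* is the member that set RVC and RVT most apart. They read 5′ to 3′ on the strand of the gene and end at the base before the start, with the ETS letters in capitals, which in *PHLDA1* lie on the other strand, 89 to 84 bases before the start, and in *SPRY2* on the strand of the gene, 142 to 137 bases before it.
PHLDA1, chr12:76031777-76032026, minus strand: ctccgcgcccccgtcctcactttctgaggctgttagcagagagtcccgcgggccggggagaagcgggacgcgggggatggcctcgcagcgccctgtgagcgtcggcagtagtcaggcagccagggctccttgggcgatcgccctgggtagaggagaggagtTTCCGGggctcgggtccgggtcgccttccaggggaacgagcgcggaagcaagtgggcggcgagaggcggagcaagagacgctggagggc
SPRY2, the start site farthest upstream, chr13:80341127-80341376, minus strand: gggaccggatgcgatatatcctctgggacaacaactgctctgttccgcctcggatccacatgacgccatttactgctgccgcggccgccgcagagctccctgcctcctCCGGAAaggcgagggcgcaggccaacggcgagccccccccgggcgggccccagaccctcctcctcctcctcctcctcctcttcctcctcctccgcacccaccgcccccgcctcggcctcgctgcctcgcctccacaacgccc
DUSP6, chr12:89352502-89352751, minus strand: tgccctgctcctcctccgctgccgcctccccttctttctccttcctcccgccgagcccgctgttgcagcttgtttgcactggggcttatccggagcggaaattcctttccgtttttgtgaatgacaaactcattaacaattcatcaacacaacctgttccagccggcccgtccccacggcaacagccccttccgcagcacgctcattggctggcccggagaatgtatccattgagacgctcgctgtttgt

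The phosphatases split by culture. *DUSP4* encodes a nuclear phosphatase of ERK (chromosome 8, 29333064 to 29350668, minus strand). Its level was 113 CPM in S (111–116) and 203 in RV (199–207), with 14.9 in RVC (13.6–16.3) and 26.9 in RVT (24.9–29.02). RV was thus the highest of the 4 libraries and both double-agent-resistant libraries lay far under S, with no overlap of the intervals. The ratio to S was 1.79 for RV (1.73–1.84), 0.132 for RVC (0.120–0.144) and 0.237 for RVT (0.219–0.257). RVT exceeded RVC 1.80-fold (1.60–2.03). Of all tested genes, 4.64% had a lower ratio than *DUSP4* in RVC against S and 9.62% in RVT against S.

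*DUSP6* encodes the cytoplasmic phosphatase specific for ERK (chromosome 12, 89347232 to 89353271, minus strand). It was measured at 56.0 CPM in S (54.1–57.9) and 64.9 in RV (62.7–67.1), with 66.2 in RVC (63.5–69.0) and 23.5 in RVT (21.7–25.5). RVT stood far below the other libraries, and S was slightly under RV and RVC, whose intervals overlapped. The ratio to S was 0.420 in RVT (0.384–0.458), 1.16 in RV (1.10–1.22) and 1.18 in RVC (1.12–1.25). Between the double-agent-resistant libraries, RVT had 0.355 times the RVC level (0.324–0.389), and 7.03% of all genes had a lower ratio there. The small difference of RVC from S was 0.24 on the log2 scale, 0.03 under TMM scaling, which sets library sizes by the trimmed mean of gene ratios, and -0.14 after centring genes of like GC content, so that it has no settled direction, whereas the RVT to RVC ratio was between -1.80 and -1.38 under all 9 alternative settings of cell filter, cell weight, thinning and scaling.

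*DUSP5* encodes a nuclear phosphatase that binds ERK (chromosome 10, 110497838 to 110511544, plus strand) and was sparse, with 246, 333, 139 and 61 UMIs in S, RV, RVC and RVT. These counts are 4.20 CPM in S (3.69–4.76) and 6.36 in RV (5.69–7.08), with 4.22 in RVC (3.54–4.98) and 2.40 in RVT (1.84–3.08). RV was the highest and RVT the lowest, and S and RVC did not differ beyond their intervals. The ratio to S was 1.51 in RV (1.28–1.79) and 0.572 in RVT (0.425–0.760). For RVT this is -0.81 on the log2 scale, which became -1.32 under TMM scaling and -1.42 after GC centring, past 2-fold lower in both.

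The Sprouty and SPRED genes did not move as a group. *SPRY4*, an inhibitor of RAS activation (chromosome 5, 142310427 to 142326455, minus strand), was lower in all 3 resistant libraries. It stood at 4.83 CPM in S (4.28–5.43) and 2.04 in RV (1.67–2.47), with 1.09 in RVC (0.765–1.51) and 2.24 in RVT (1.70–2.91), from 283, 107, 36 and 57 UMIs. RV and RVT overlapped, and RVC was under all others. Relative to S, RV had 0.423 times the level (0.335–0.530), with ratios of 0.226 for RVC (0.155–0.321) and 0.465 for RVT (0.343–0.619). In RV against S only 2.29% of all genes had a lower ratio.

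*SPRY2*, which inhibits receptor signalling to RAS (chromosome 13, 80335976 to 80340951, minus strand), was at 21.9 CPM in S (20.7–23.1) and 20.1 in RV (18.9–21.4), with 12.5 in RVC (11.3–13.8) and 19.96 in RVT (18.3–21.8). In CPM, RVC alone was below the others, at 0.571 times S (0.510–0.638), and the intervals of S, RV and RVT overlapped. The log2 ratio of RVT to S of -0.13 was -0.65 with TMM scaling and -1.13 after GC centring, past 2-fold lower, so the position of RVT beside S and RV rests on the scaling. For RVC against S the same scalings gave -1.02 and -1.39 in place of -0.81.

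*SPRED1*, which brings neurofibromin to the membrane and so restrains RAS (chromosome 15, 38252326 to 38357249, plus strand), was highest in RVT. It had 14.2 CPM in S (13.2–15.2) and 11.9 in RV (10.99–12.9), with 15.3 in RVC (14.0–16.7) and 34.4 in RVT (32.1–36.7), that is 2.42 times S (2.198–2.66) and 2.24 times RVC (2.00–2.50). The log2 ratio of RVT to S of 1.28 was 0.76 under TMM scaling and 0.28 after GC centring, so 2-fold is not reached under either, and that of RVT to RVC went from 1.16 to 0.86 and 0.61. *SPRED2*, the second member of this family (chromosome 2, 65310851 to 65432637, minus strand), was at 8.91 CPM in S (8.16–9.71) and 7.33 in RV (6.61–8.10), with 11.4 in RVC (10.3–12.6) and 16.0 in RVT (14.5–17.6). Its order of levels was that of *SPRED1*, but the log2 ratio of RVT to S of 0.84 was 0.33 with TMM scaling and -0.02 after GC centring. The last 500 transcript bases of *SPRED1* hold 29.2% GC and those of *SPRED2* 34.4%.

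*PHLDA1* encodes a pleckstrin-homology protein whose transcript follows ERK activity (chromosome 12, 76025447 to 76033932, minus strand). It was measured at 312 CPM in S (307–317) and 352 in RV (347–357), with 152 in RVC (148–157) and 198 in RVT (192–203). Both double-agent-resistant libraries were below S and RV, at 0.488 times S in RVC (0.473–0.504) and 0.634 times S in RVT (0.615–0.654), whereas RV was 1.13 times S (1.10–1.15). The log2 ratio of RVT to S was -0.66 in CPM, -1.17 under TMM scaling and -1.27 after GC centring.

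The ETS factors diverged from each other. *ETV4* (chromosome 17, 43527844 to 43579620, minus strand) stood at 75.5 CPM in S (73.2–77.7) and 75.7 in RV (73.3–78.1), with 19.7 in RVC (18.2–21.3) and 12.6 in RVT (11.2–14.0). S and RV were indistinguishable by counting error, with a ratio of 1.00 (0.960–1.05), and RVC and RVT were at 0.261 (0.240–0.284) and 0.166 times S (0.148–0.186). *ETV5*, its close relative (chromosome 3, 186046308 to 186110318, minus strand), was at 31.6 CPM in S (30.2–33.1) and 21.2 in RV (19.996–22.5), with 29.5 in RVC (27.7–31.4) and 32.0 in RVT (29.8–34.2). In CPM, RV was the lowest library, at 0.671 times S (0.622–0.723), and the ratios of RVC (0.932, 0.861–1.01) and RVT (1.01, 0.929–1.10) to S had intervals that include 1. Under TMM scaling the log2 ratio of *ETV5* in RVT to S was -0.50 and after GC centring -0.60, so the level relative to S rests on the scaling, but it stayed far from the -3.10 and -2.12 of *ETV4* under the same settings. That of RV to S was -0.58 in CPM, -0.62 under TMM scaling and -0.30 in cells thinned to 1500 UMIs, the lowest of the 3 resistant libraries in each, but after GC centring it was -0.57, level with RVT.

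**Figure D1:**
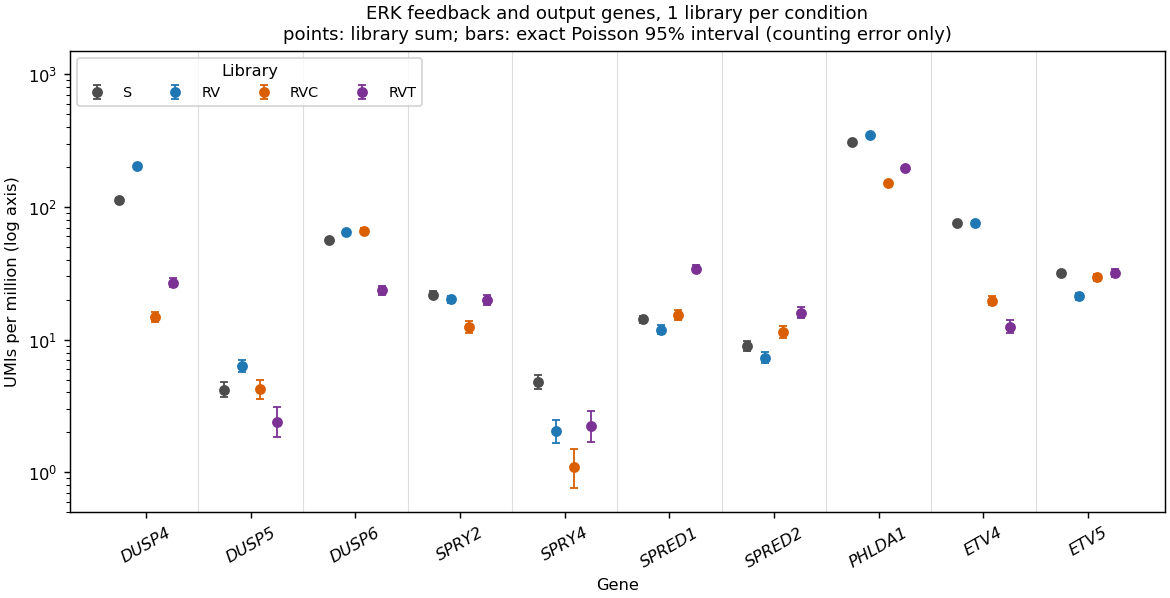
CPM (log axis) of the 10 members in the S, RV, RVC and RVT libraries, 1 point per library with its exact Poisson 95% interval for counting error. DUSP4, PHLDA1 and ETV4 are lower in RVC and RVT than in S and RV, DUSP6 is lower in RVT only (23.5 against 56.0 to 66.2), and ETV5 is lowest in RV (21.2), an order that GC centring removes.

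Counted past 2-fold, the members gave the following picture. In RV against S, 1 of 10 passed (*SPRY4*, lower), where 6.79% of all tested genes passed, 3.54% higher and 3.25% lower. In cells thinned to 1500 UMIs *SPRY4* no longer passed (log2 ratio -0.72, against -1.24 in CPM) and *DUSP5* did, higher (1.17, against 0.60). These thinned ratios rest on 18 RV and 45 S UMIs of *SPRY4*, and on 52 and 35 of *DUSP5*. Of all genes, 10.2% passed in thinned cells. In RVC against S, 4 passed, all lower (*DUSP4*, *SPRY4*, *PHLDA1* and *ETV4*), where 46.1% of all genes passed and 22.3% were lower. *PHLDA1* lay close to the limit, at -1.03 in CPM and -0.98 in thinned cells. In RVT against S, 5 passed, *SPRED1* higher and *DUSP4*, *DUSP6*, *SPRY4* and *ETV4* lower, where 55.7% of all genes passed, 34.1% higher and 21.6% lower. In RVT against RVC, *SPRY4* and *SPRED1* were past 2-fold higher and *DUSP6* lower, 3 of 10 beside 33.9% of all genes. In thinned cells *DUSP5* was also past 2-fold lower there (-1.22, against -0.81 in CPM, from 24 and 53 thinned UMIs), beside 34.8% of all genes past 2-fold. The shares of members past 2-fold in either direction were thus close to those of all genes in every comparison. The direction differed more in RVC and RVT against S: the median log2 ratio of the members was -0.46 in RVC and -0.73 in RVT, where the median of all genes was 0.22 and 0.41. In RV against S it was -0.06 beside 0.02, and in RVT against RVC 0.43 beside 0.29.

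The scaling moved this background, and the median of the members with it. Under TMM scaling the median log2 ratio of the members was -0.67 in RVC and -1.25 in RVT against S. TMM scaling shifts every gene of a comparison alike, so the distance to the median of all genes was that in CPM. After GC centring, which sets the median of all genes to 0, the members were at -0.95 in RVC and -1.35 in RVT. With TMM factors the median of all genes was 0.00 in RVC and -0.11 in RVT against S, and the genes past 2-fold were 17.9% higher and 25.8% lower in RVC (23.8% and 22.3% in CPM), 21.1% higher and 29.9% lower in RVT, and 13.9% higher and 17.4% lower in RVT against RVC (21.7% and 12.2%). Members past 2-fold were then 5 lower in RVC, with *SPRY2* added, and 6 lower and none higher in RVT, with *DUSP5* and *PHLDA1* added and *SPRED1* lost. In RVT against RVC, *DUSP6* and *DUSP5* were past 2-fold lower and no member higher. GC centring gave the same members as TMM scaling, except that *SPRY2* was also past 2-fold lower in RVT against S, which made 7 lower. All genes past 2-fold after GC centring were 17.6% higher and 22.95% lower in RVC, 22.1% higher and 24.6% lower in RVT against S, and 13.9% higher and 16.5% lower in RVT against RVC. *DUSP4*, *SPRY4* and *ETV4* in both double-agent-resistant libraries against S, and *DUSP6* in RVT against S and RVC, were lower by more than 2-fold under all 9 alternative settings, with log2 ratios from -3.31 to -2.90, -2.54 to -2.14 and -2.15 to -1.53 in RVC, and -2.69 to -2.03, -1.72 to -1.01 and -3.10 to -2.12 in RVT for *DUSP4*, *SPRY4* and *ETV4*, and from -1.87 to -1.21 for *DUSP6* in RVT against S.

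**Figure D2:**
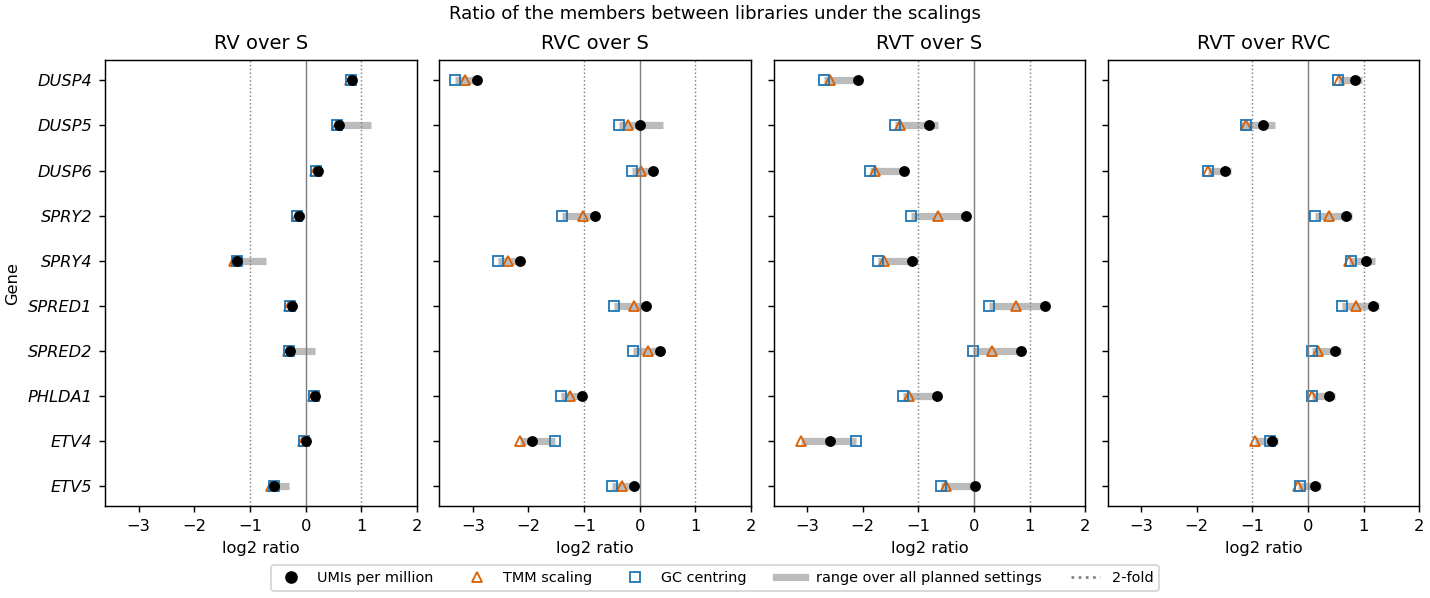
Log2 ratio of each member (rows) in 4 comparisons (panels) from CPM (circles), with TMM scaling (triangles) and after GC centring (squares), the grey bar being the range over the main value and all 9 alternative settings, and the dotted lines 2-fold. In RV against S the scalings coincide, whereas in RVT against S they shift all members, SPRED1 from 1.28 to 0.28 and DUSP6 from -1.25 to -1.87.

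The share of cells with at least 1 UMI of a member was compared after each cell was thinned to 1500 UMIs, which left out 397 RVC and 845 RVT cells with fewer and none of S or RV. *PHLDA1* was found in 36.5% of thinned S cells (35.3–37.7), 41.1% of RV (39.6–42.6), 20.7% of RVC (19.8–21.6) and 25.5% of RVT (24.6–26.5). *DUSP4* was in 16.2% of S cells (15.3–17.2), 27.2% of RV (25.9–28.6), 2.13% of RVC (1.81–2.49) and 4.04% of RVT (3.61–4.51). *DUSP6* was in 8.34% (7.67–9.04), 9.31% (8.45–10.2), 9.49% (8.83–10.2) and 3.13% (2.75–3.55) of S, RV, RVC and RVT cells. These shares kept the order of the levels. *ETV4* was in 10.1%, 10.7%, 2.93% and 1.86% of cells, *ETV5* in 4.59%, 3.78%, 4.29% and 4.37%, and *SPRED1* in 2.18%, 1.84%, 2.45% and 5.17%. *SPRY4* was near the limit, in 45 of 6334 S cells (0.710%, 0.519–0.949), 18 of 4177 RV cells (0.431%, 0.256–0.680), 9 RVC cells (0.125%) and 21 RVT cells (0.276%), so that in thinned cells the intervals of S and RV overlapped. Without thinning, *DUSP4* was found in 56.3% of S, 82.6% of RV, 6.07% of RVC and 7.52% of RVT cells and *PHLDA1* in 87.1%, 93.9%, 43.2% and 40.0%, which also follows the depth of the libraries. Droplets hold free RNA, and since the cultures hold no cell type known to lack these genes, the share that it gives could not be measured.

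Cells of S and RV differ among themselves in a state marked by the hair keratin *KRT81* and the cancer-testis gene *SPANXB1*. Of the S cells, 2708 (42.8%) held at least 5 UMIs of this pair and 2495 (39.4%) held none; in RV these were 3491 (83.6%) and 108 cells (2.59%), in RVT 4252 (50.3%) and 479 (5.67%), and in RVC 0 and 7614 cells (99.9%). Within S, *SPRY4* followed the state more than any other member. It was at 8.56 CPM in cells without the pair (7.37–9.89), 5.72 in cells with 1 to 4 UMIs of it (4.32–7.43) and 1.54 in cells with 5 or more (1.11–2.09), a ratio of 0.180 (0.126–0.253). *SPRY2* was also lower in cells with 5 or more, at 16.0 CPM against 26.7 in cells without the pair (ratio 0.599, 0.528–0.680), but at 27.7 in those with 1 to 4. *DUSP4* went the other way, with 90.1 and 130 (ratio 1.44, 1.37–1.53). The other members lay between 0.782 (*ETV5*) and 1.22 (*DUSP5*), and 1 of 10 members was past 2-fold, beside 10.8% of all genes, 6.45% higher and 4.35% lower.

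In a comparison added after the data had been seen, RV and S were set side by side among cells with like UMIs of the pair. This gave another result for *SPRY4*. In cells with 5 or more UMIs of the pair it was at 1.94 CPM in RV (90 UMIs) and 1.54 in S (42 UMIs), a ratio of 1.26 (0.864–1.86), and in cells without the pair at 10.5 in RV (9 UMIs) and 8.56 in S (185 UMIs), a ratio of 1.23 (0.554–2.39). In neither of these strata was *SPRY4* lower in RV, although over all cells RV had 0.423 times the S level. In the cells between, with 1 to 4 UMIs of the pair, *SPRY4* was at 1.52 in RV (0.657–2.997), from 8 UMIs, and 5.72 in S. *DUSP4* kept its direction in every stratum, with 192 against 130 CPM in cells with 5 or more (ratio 1.47, 1.42–1.53), 280 against 119 in those with 1 to 4, and 324 against 90.1 in those with none (ratio 3.60, 3.16–4.08, from 108 RV cells). *ETV5* was at 0.750 times S (0.681–0.827) in cells with 5 or more and at 0.938 (0.619–1.37) in those with none. *DUSP4* thus was higher in S cells with the pair than without it, whereas in RV it was highest in the cells without it. The RV strata also differed in depth, with a median of 7325.5 UMIs in cells with none, 8907 in those with 1 to 4 and 12219 in those with 5 or more, and *DUSP4* in RV was at 269 CPM in the shallowest tertile of cells and 175 in the deepest. The part of depth in this order was not tested. RV cells were deeper than S cells at the same UMI limit (median 12219 against 9415 UMIs in cells with 5 or more), so the strata are not the same in both libraries. The make-up of the pair also differed. *KRT81* was at 1178 CPM in S, 597 in RV and 93.1 in RVT, and *SPANXB1* at 203, 1298 and 1868. A stratum of their summed UMIs thus need not hold the same state in each library. The part of this in the *SPRY4* ratios was not tested.

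**Figure D3:**
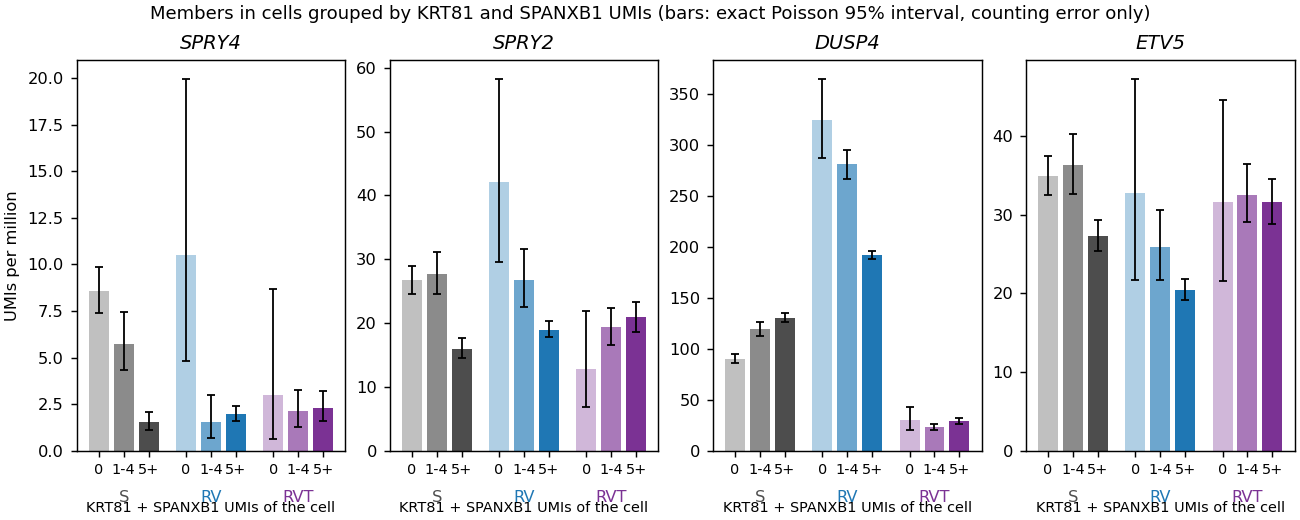
CPM of SPRY4, SPRY2, DUSP4 and ETV5 in S, RV and RVT cells with 0, 1 to 4, or 5 or more UMIs of KRT81 and SPANXB1, with exact Poisson 95% intervals for counting error. Across the strata from 0 to 5 or more, SPRY4 in S goes from 8.56 to 1.54, and DUSP4 goes from 90.1 to 130 in S but from 324 to 192 in RV.

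In RVT, *SPRY4* was at 2.28 CPM in cells with 5 or more UMIs of the pair (1.58–3.19) and at 2.11 in those with 1 to 4 (1.29–3.26), which did not differ beyond counting error. *SPRY2* was at 20.9 and 19.3 in the same strata. *SPRY4* in S was at 1.54 in cells with 5 or more (1.11–2.09) and at 5.72 in those with 1 to 4. RVT was thus not lower than S in cells with 5 or more, where the intervals overlapped, but lower in those with 1 to 4. Over all cells RVT had 0.465 times the S level. In the 479 RVT cells without the pair *SPRY4* was at 2.96 (0.611–8.66), from 3 UMIs, and *SPRY2* at 12.8 (6.83–21.9), from 13 UMIs. In *SPRY2* this is the lowest RVT stratum by value, whereas in S the cells with 5 or more were the lowest. The *SPRY4* interval is too wide to show an order.

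Cells in mitosis, those with UMIs of at least 3 of 10 mitotic genes after thinning, numbered 437 in S and 399 in RV, with 1089 in RVC and 282 in RVT. *DUSP4* was lower in mitotic than in other cells in S (87.0 against 116 CPM, ratio 0.752, 0.679–0.831) and RV (155 against 208, ratio 0.745, 0.694–0.799), and did not differ beyond counting error in RVC (1.01, 0.785–1.29) and RVT (1.13, 0.781–1.58). *ETV5* was above 1 in all 4 libraries, at 1.22 (1.04–1.43) in S and 1.14 (0.941–1.36) in RV, and at 1.28 (1.08–1.499) in RVC and 1.29 (0.945–1.74) in RVT. *PHLDA1* was 1.15 (1.10–1.21) in S and 1.12 (1.07–1.17) in RV, with 0.970 (0.897–1.05) in RVC, but 0.522 (0.434–0.622) in RVT, where mitotic cells had 105 and other cells 200 CPM. The largest ratio in S was that of *DUSP5*, 1.77 (1.19–2.57) from 33 UMIs in mitotic cells, and *ETV4* was at 1.23 (1.11–1.36) there. *DUSP6* was at 0.871 (0.769–0.985) in RVC and *SPRED1* at 0.642 (0.420–0.941) in RVT. The level of a member also moved with the depth of the cell. The tertile of deepest cells had 0.701 times the *DUSP4* level of the shallowest tertile in S (0.661–0.744) and 0.648 times in RV (0.619–0.680), and 0.781 times the *PHLDA1* level in RVT (0.726–0.840). *DUSP5* in S went the other way, at 2.01 times (1.38–2.99), the sole ratio of deepest to shallowest cells whose interval lay above 1 in any library. The part of depth in the differences between mitotic and other cells was not tested.

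The spread between cells was small for most members. In thinned cells the variance of the UMI counts over their mean, which is 1 for counting error alone, was 1.14 in S and 1.15 in RV, with 1.10 in RVC and 1.12 in RVT for *PHLDA1*, and 1.09 and 1.10 in S and RV for *DUSP4*. *DUSP6* had 1.04 in S and 1.01 in RV but 1.16 in RVC and 1.09 in RVT. In RVC and RVT, 98.5% and 99.0% of 200 genes of like UMI count had a lower value. The standard errors there were 0.058 and 0.085, so that the RVT value was not set apart from 1. A measure that uses all UMIs, the variance of counts corrected for the depth of each cell, was added after the data had been seen. It gave 1.86, 2.32, 1.25 and 1.33 in S, RV, RVC and RVT for *PHLDA1*, 1.70, 2.07, 1.07 and 1.10 for *DUSP4*, and 1.23, 1.28, 1.39 and 1.13 for *DUSP6*. This measure grows with the UMIs per cell, so each value was read against 200 like genes of the same library and not between libraries. *PHLDA1* exceeded 93.0% of its like genes in S and 89.5% in RV, and *DUSP4* 92.5% and 91.0%. *DUSP6* was again more spread in RVC than 98.0% of the like genes and in RVT than 97.5%, although its mean level in RVC lay close to that of RV. *SPRY2* exceeded 97.5% of the like genes in RVT, at 1.14. Such ranks can move with the measure where UMIs are few. *DUSP4* in RVC exceeded 97.5% of its like genes in thinned cells but 75.5% by the depth-corrected variance. *ETV4*, with 1.08, 1.17, 1.05 and 0.971, and *ETV5*, with 1.04, 1.07, 1.06 and 1.06, stayed near counting error.

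**Figure D4:**
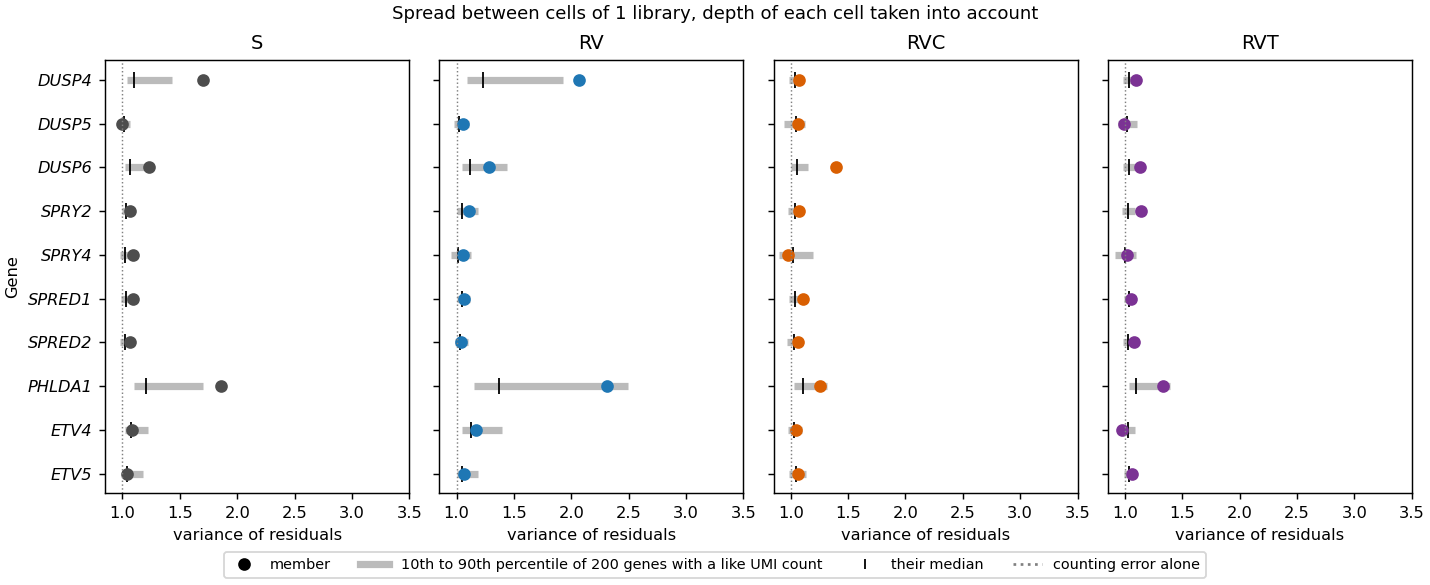
Variance between cells of the depth-corrected counts for each member (dots) in the 4 libraries, with the median (tick) and the range from the 10th to the 90th percentile (grey) of 200 genes with a like UMI count, the dotted line at 1 being counting error alone. DUSP4 lies above the grey range in S and RV (1.70 and 2.07) and slightly above it in RVT (1.10). DUSP6 lies above the grey range in RVC at 1.39 and in RVT at 1.13.

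Members were seen together about as often as their shares would give. Of the 45 pairs of members, 28 in S and 26 in RV, as well as 19 in RVC and 26 in RVT, had at least 5 cells expected to hold both after thinning, and the median ratio of observed to expected cells was 1.02, 1.04, 1.01 and 0.978. *DUSP4* and *DUSP6* shared 66 S cells where 85.7 were expected (0.770, 0.596–0.980), and *DUSP6* and *ETV4* shared 39 where 53.4 were expected (0.731, 0.520–0.999). *DUSP4* and *PHLDA1* were together more often in RV (ratio 1.10, 1.004–1.20). These are 3 of 99 pairs over the 4 libraries with an interval that leaves out 1. The intervals are 95% intervals of single pairs, not adjusted for their number, so that no pair is set apart by them.

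By correlation across all filtered cells of 1 library, averaged over the 4 libraries, the genes most like *DUSP4* among 1874 well-measured genes were *S100A6* (mean 0.18), *NEAT1* (0.16) and *LGALS1* (0.15). For *S100A6* it was 0.34 in S and 0.37 in RV but -0.02 in RVC and 0.04 in RVT. A cell held on average 1.05 UMIs of *DUSP4* in S and 2.54 in RV, against 0.065 in RVC and 0.081 in RVT. Sparse counts weaken a correlation, and the part of this in the lower values of RVC and RVT was not tested. *PHLDA1* was most like *TSC22D1* (0.12), *INHBA* (0.11) and *ERRFI1* (0.11), a feedback inhibitor of EGFR. *DUSP6* was most like *ERRFI1* (mean 0.07), *IER2* (0.06) and *IER3* (0.06). Their correlations with *DUSP6* were 0.10, 0.10 and 0.09 in S, and 0.08, 0.12 and 0.10 in RV. In RVC they were 0.07, 0.03 and 0.02, and in RVT 0.03, 0.01 and 0.04. The remaining members had means of at most 0.06. In such sparse counts these low means were not read as a finding. Between members, the same correlation of *DUSP4* and *PHLDA1* was 0.19 in RV, with 0.03 in each of S, RVC and RVT. That of *DUSP6* and *PHLDA1* was 0.15 in RV and 0.07 in S, with 0.02 in RVC and 0.01 in RVT. The points are the cells kept in each library, which share its depth and free RNA. In RV the deepest tertile of cells had 0.648 times the *DUSP4* level and 0.808 times the *PHLDA1* level of the shallowest. The part of depth in the correlation of these members was not tested.

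Other genes of the pathway, listed by role, were read in the same way. Of 14 further feedback regulators, 11 passed the filter on low genes. None of the 11 was past 2-fold in RV against S, beside 6.79% of all genes. In RVC against S, 4 were higher (*DUSP1*, *DUSP16*, *ERRFI1* and *SPRED3*) and 2 lower (*SPRY1* and *DUSP10*), beside 23.8% of all genes higher and 22.3% lower. In RVT against S, 6 were higher, among them *SPRY1*, *NF1*, *DUSP1*, *DUSP2* and *DUSP16*, and none lower, beside 34.1% and 21.6%. In RVT against RVC, 3 were higher (*SPRY1*, *NF1* and *DUSP2*) and 1 lower (*ERRFI1*), beside 21.7% and 12.2%. TMM scaling gave 2 higher and 2 lower in RVC and 5 higher and 1 lower in RVT against S, and GC centring 3 and 2 in RVC and again 3 and 2 in RVT, where *SPRY1*, *NF1* and *DUSP1* were no longer past 2-fold. All genes past 2-fold under TMM scaling were 17.9% higher and 25.8% lower in RVC, and 21.1% and 29.9% in RVT. After GC centring they were 17.6% and 22.95% in RVC, and 22.1% and 24.6% in RVT. In RVT against RVC both gave 2 higher, *SPRY1* and *DUSP2*, and 2 lower. The shares of all genes there were 13.9% higher and 17.4% lower under TMM scaling, and 13.9% and 16.5% after GC centring. *SPRY1*, another Sprouty gene, was at 15.1 CPM in S and 11.1 in RV, with 2.37 in RVC and 55.5 in RVT, so that RVT exceeded RVC 23.4-fold (18.7–29.8). *NF1*, which encodes the RAS inhibitor neurofibromin that SPRED proteins recruit, was at 15.6, 13.5, 28.9 and 58.3. *DUSP1*, *DUSP2* and *DUSP16*, phosphatases of several MAP kinases, were higher than in S in RVT, by 2.999-fold (2.37–3.80), 4.19-fold (2.99–5.94) and 4.32-fold (3.22–5.85), at levels of at most 11.6 CPM in any library. *DUSP4* and *DUSP6*, by contrast, were lower there.

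All 16 further ERK output genes passed the filter. In RV against S, 2 were past 2-fold, both higher, beside 3.54% of all genes higher and 3.25% lower: *FOSL1*, an AP-1 subunit, at 342 against 164 CPM (2.08, 2.03–2.14), and the receptor gene *EPHA2* at 81.7 against 30.1 (2.72, 2.57–2.87). In RVC against S, 5 were higher (*CXCL8*, *FOS*, *EGR1*, *ETV1* and *SH2B3*) and 4 lower (*MYC*, *CCND1*, *EPHA4* and *IER3*), beside 23.8% of all genes higher and 22.3% lower, with a median log2 ratio of -0.13. In RVT against S, 3 were higher (*FOS*, *EGR1* and *EPHA4*) and 9 lower, beside 34.1% and 21.6%, with a median of -1.49. TMM scaling gave 4 higher and 4 lower in RVC and 2 and 11 in RVT, and GC centring 3 and 3 in RVC and 2 and 10 in RVT, without *EPHA4* among the higher genes in RVT. The shares of all genes under these scalings are those given for the feedback regulators. *FOSL1* was at 117 in RVC and 14.9 in RVT, *MYC* at 21.1 in S and 18.6 in RV, with 0.940 in RVC and 2.09 in RVT, and the chemokine gene *CXCL8* at 88.1, 55.3, 1003 and 7.36. *FOS*, the immediate-early AP-1 gene, was at 8.87, 8.19, 50.9 and 68.3. Of the 4 other genes listed for stress of dissociation, *HSPA1A* stood at 2.22, 4.07, 54.2 and 32.7 in the same libraries and *HSPA1B* at 0.990, 1.43, 20.7 and 14.2, whereas *JUN* was at 11.5, 23.2, 33.4 and 13.7 and *ATF3* at 9.49, 18.6, 2.58 and 8.74. The part of handling stress in the *FOS* values was not tested. *EPHA4*, another ephrin receptor gene, was at 2.37, 1.97, 0.698 and 6.10, so that RVT exceeded RVC 8.75-fold (5.62–14.2). In RVT against RVC 6 output genes were lower, including *FOSL1* (0.127, 0.114–0.141) and *CXCL8* (0.00734, 0.00632–0.00847), and 2 higher (*EPHA4* and *MYC*), beside 12.2% of all genes lower and 21.7% higher. Lower genes numbered 10 under TMM scaling and 9 after GC centring, beside 17.4% and 16.5% of all genes. *EPHA4* alone was higher under both, beside 13.9% of all genes in each.

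Of 10 genes of the cascade itself, 1 was past 2-fold in RV against S, *KSR1*, a scaffold of RAF and MEK, lower at 0.363 against 1.18 CPM. In RVC against S, 4 were higher (*BRAF*, *MAP2K1*, *KSR1* and *NRAS*) and 1 lower (*MAPK3*), and in RVT the same 4 were higher and 1 lower (*MAPK3*). *BRAF* was past 2-fold higher in RVT against RVC, and none was lower. *BRAF* was at 3.36, 5.71, 10.5 and 22.9 CPM and *NRAS* at 13.6, 14.1, 31.4 and 50.6, whereas the ERK1 gene *MAPK3* was at 28.5, 29.8, 11.5 and 6.89. The shares of all genes in CPM are those given for the output genes in each comparison. Under TMM scaling and GC centring they are those given for the feedback regulators. TMM scaling gave 3 higher and 1 lower in RVC and 3 higher and 3 lower (*HRAS*, *ARAF* and *MAPK3*) in RVT against S. After GC centring 4 were higher in RVC (*HRAS*, *BRAF*, *MAP2K1* and *MAP2K2*) and 4 in RVT (*HRAS*, *BRAF*, *MAP2K2* and *KSR1*) and none was lower. *HRAS* thus turned from lower to higher in RVT with the scaling, and *BRAF* alone was past 2-fold higher in both libraries in CPM and under both of these scalings. In RVT against RVC *BRAF* did not reach 2-fold under either, and *MAPK3* was past 2-fold lower under TMM scaling. The scaling alternatives for these lists were added after the data had been seen, and the lists were not tested against other genes.

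**Figure D5:**
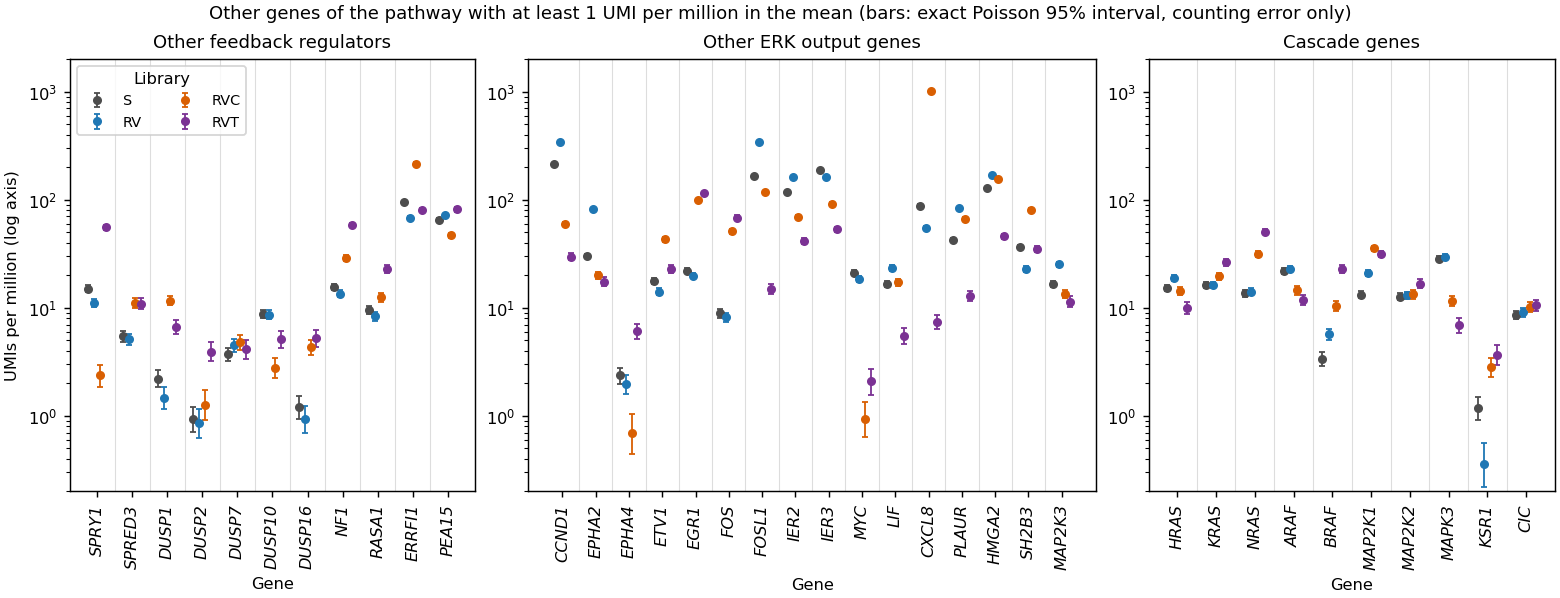
CPM (log axis) in the 4 libraries of 11 further feedback regulators, 16 further ERK output genes and 10 genes of the cascade that passed the filter on low genes, with exact Poisson 95% intervals for counting error. SPRY1 ranges from 2.37 in RVC to 55.5 in RVT, and FOSL1 and CXCL8 are far lower in RVT than in RVC.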

How the data were processed

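Single-cell RNA was measured in 4 libraries, 1 each of S, RV, RVC and RVT. The authors sequenced 10x Genomics libraries (Chromium, v2 chemistry), and their processing notes name bcl2fastq 2.20.0.422, Cell Ranger and GRCh38. What the authors deposited are raw UMI counts, whole numbers for each gene in each barcode, not normalized; the annotation version and filters before deposit are not given in the sources used here. The kit counts transcript 3′ ends, so levels were compared between libraries, not between genes.

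Barcodes were kept from 500 detected genes upward and up to 20% mitochondrial UMIs. Fewer genes were found in 0 S, 0 RV, 903 RVC and 1084 RVT barcodes, and more mitochondrial UMIs in 2, 1, 478 and 580. These filters thus acted almost only on RVC and RVT. By scrublet's doublet score (scanpy 1.11.5) the top barcodes were taken out, 0.8% for every 1000 barcodes. They were 359, 150, 687 and 870 in S, RV, RVC and RVT, because the tool's own threshold marked 18, 1, 4 and 3. UMIs were summed per library and given as CPM, UMIs per 1000000 UMIs of the library. Intervals are exact 95% intervals, Poisson for levels, conditional binomial for ratios and Clopper-Pearson for shares of cells. A count of 0 allows up to 3 UMIs, 0.0512 CPM in S and 0.0573 in RV, with 0.0910 in RVC and 0.118 in RVT. A gene was called past 2-fold among the 12683 genes listed in all 4 tables with a mean of at least 1 CPM. Conditions could not be tested against each other, and cells were not used as replicates.

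The alternatives were other cell filters, doublets kept, equal weight per cell, cells thinned to 1500 UMIs, TMM factors (edgeR 4.0.16 in R 4.3.3; 0.875 and 0.902 for S and RV, 1.01 and 1.25 for RVC and RVT), library sizes without ribosomal protein and mitochondrial genes, centring within 10 classes of the GC content of the last 500 transcript bases (GENCODE 29), and other filters on low genes and folds. The comparison within cells grouped by *KRT81* and *SPANXB1*, the depth-corrected variance and the scalings of the pathway lists were added after the data had been seen. Ratios were tested on simulated library sums with 200 of 12683 genes changed 4-fold, of which 99.5% were recovered past 2-fold in RV, 98% in RVC and 99.5% in RVT against S and 99% in RVT against RVC. Both simulated sums came from the composition of 1 library and held counting error only. The GC trend, the annotations and the depth of cells were not simulated. The recovery thus checks the calculation and says nothing of how far the reported ratios hold.

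The members, the lists and the rules were chosen with earlier results of these data known. Beside the members, at most 5 genes of a list were named, those with the largest ratio in any comparison among genes past 2-fold. Genes that make up a count of 5 or fewer, and the marker genes, were named after their values had been seen. Genes most like a member were the 3 with the highest mean correlation of depth-corrected counts, for members of at least 10 CPM. Computations used python 3.11.15, numpy 2.4.6, pandas 2.3.3 and scipy 1.17.1, and figures matplotlib 3.10.9. Further genes of the kinase cascade, beside the 10 counted, are not reported here.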

Additional observations from a re-analysis of the deposited data

How the results depend on the processing

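The number of members past 2-fold stayed within 1.5 times of that reported in all 4 comparisons under other cell filters, kept doublets, equal weight per cell, thinned cells, TMM scaling, other library sizes, GC centring and no filter on low genes. This number takes higher and lower members together. Which members passed did change: in cells thinned to 1500 UMIs the member past 2-fold in RV against S was *DUSP5* (log2 ratio 1.17, higher) and no longer *SPRY4* (-0.72), and *PHLDA1* in RVC against S came to -0.98. In RVT against RVC *DUSP5* came to -1.22 in thinned cells, past 2-fold lower. Under TMM scaling and GC centring *DUSP5* was also past 2-fold lower there, and *SPRY4* and *SPRED1* were no longer past 2-fold higher. In RVT against S both scalings took out *SPRED1* and added *DUSP5* and *PHLDA1* as lower, with *SPRY2* after GC centring. In RVC against S both added *SPRY2* as lower. With at least 10 CPM in the mean, 8 members were left, without *SPRY4* and *DUSP5*, and 0 of them passed in RV against S. Under the main filter 6.79% of all genes passed there, so that 0 of 8 is near that share. At 1.5-fold, 3 members passed in RV against S, 8 in RVT against S and 7 in RVT against RVC, beside 16.5%, 73.4% and 56.8% of all genes. In cells with 5 or more UMIs of *KRT81* and *SPANXB1*, a comparison added after the data had been seen, 0 members passed in RV against S. Over all cells 6.79% of all genes passed, and the share within these cells was not taken. The log2 ratio of *SPRY4* reversed to 0.33 there, and to 0.30 in cells without the pair, though both intervals include no change (as ratios 0.864–1.86 and 0.554–2.39). In cells with 1 to 4 UMIs of the pair *SPRY4* was lower in RV (1.52 against 5.72 CPM). The cause of these changes was not tested. No paired analysis was possible because each condition has 1 library. Depth limits *SPRY4* and *DUSP5* most, with 36 to 333 UMIs per library and 9 to 53 after thinning. Every interval covers counting error only, so the spread between cultures is unknown.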
